A study of Rattus norvegicus with 19 samples.

Results

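The comparison is between left ventricles of rats with heart failure with preserved ejection fraction (HFpEF) that were given empagliflozin (EMPA), an inhibitor of the sodium-glucose cotransporter SGLT2, and left ventricles of rats with the same disease model that were given vehicle. It holds 5 of the 19 RNA sequencing libraries of the series, chosen by their titles: 2 libraries titled EMPA treated and 3 titled untreated, all taken at week 9. All 5 animals were Sprague-Dawley rats, aged 24 weeks at the start, labelled male, with HFpEF induced by L-NAME (0.5 g/L in drinking water), an inhibitor of nitric oxide synthesis, together with a high-fat diet. The EMPA animals then received EMPA at 0.35 g/kg/day by gavage for 4 weeks, and the untreated animals received phosphate-buffered saline. The authors state that 1 EMPA library was left out because its data file was damaged, which leaves 2. The other libraries come from control hearts at weeks 5 and 9, HFpEF hearts at week 5, and hearts given pirfenidone (PFD) with or without EMPA. They enter the estimate of the spread and are quoted where a level needs a reference.

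SGLT2 carries filtered glucose and sodium back into the blood in the kidney, and its inhibition lowers blood glucose through loss of glucose in urine. The transporter is scarce in heart muscle, so actions of these drugs on the heart are discussed through ketone bodies and fatty acids as fuel, through sodium handling, and through red cell production, inflammation and fibrosis. The gene groups described below follow those roles.

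The libraries held 7430539 counts in EMPA 1, 8061054 in EMPA 2, 9951011 in untreated 1, 10142209 in untreated 2 and 9640990 in untreated 3. Of 17455 gene symbols, 15227 had a count in some library and 12388 passed the filter on low counts and were tested. Levels are given as CPM, read counts scaled to library size after TMM normalization, and differences as log2 fold changes of EMPA over untreated with their standard error (SE), from n = 2 and n = 3 libraries. A gene is said to have risen or fallen where the adjusted p of edgeR's quasi-likelihood test was under 0.05 and the log2 fold change was at least 1 in size. The floor for a count of 0 is 3 counts per library, and it covers counting error only.

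Several libraries stood apart from their group or from their labels. The Y-linked gene Eif2s3y, which marks male cells, had 676 and 789 counts in EMPA 1 and 2, and 0 in untreated 1, 2 and 3, although every animal is labelled male. Counts of Eif2s3y were 0 in 7 of the 19 libraries and present in 12. Ddx3, a symbol that the reference table gives to an autosomal gene and also lists as an older name of the Y-linked Ddx3y, had 929 and 855 counts with EMPA and 0 in the 3 untreated libraries. The unplaced symbol LOC100911498 went the other way, with 6 and 3 counts with EMPA against 13032, 26816 and 14759 untreated. These levels split the libraries exactly along the treatment, so a difference between EMPA and vehicle and a difference between animals with and without counts of Eif2s3y cannot be told apart within the 5 libraries. Whether libraries were exchanged or the sex of animals differs from the labels was not tested. Of 14 symbols listed as sex-linked, with Ddx3 and LOC100911498 put there although their place is not shown, 6 were tested, 2 higher (Eif2s3y and Ddx3) and 4 lower with EMPA at unadjusted p under 0.05. The 4 were LOC100911498, Eif2s3, Ddx3x and the Y-linked Ddx3y, which ran opposite to Eif2s3y at 1 and 3 counts with EMPA and 11, 17 and 11 untreated. Eif2s3y was at least 318-fold higher and Ddx3 at least 390-fold higher with EMPA.

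Untreated 2 differed from the other untreated libraries in atrial genes. Myl4, the atrial light chain of myosin, had 62 and 200 counts with EMPA and 41, 19668 and 46 counts in untreated 1, 2 and 3. The summed level of 13 atrial markers was 15322 CPM in untreated 2, against 290 and 656 CPM in untreated 1 and 3 and 967 and 5539 CPM in EMPA 1 and 2, with Nppa the most abundant. The 10 ventricular markers, led by Mb, summed to 21253 CPM in untreated 2, 79449 and 67768 CPM in untreated 1 and 3, and 53255 and 40479 CPM in EMPA 1 and 2. Ventricular markers were thus present in every library. Nppa was high in untreated 2 and EMPA 2, and Myl4, Myl7 and Sln were high in untreated 2 alone. Across genes, log2 CPM of untreated 2 correlated with untreated 1 and 3 at 0.942 and 0.951, against 0.988 between those libraries and 0.967 between EMPA 1 and 2. Genes are not independent replicates.

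The EMPA libraries differed from each other as well. Erythroid and platelet markers summed to 2364 CPM in EMPA 1 and 468 CPM in EMPA 2, and to 248, 251 and 325 CPM in the untreated libraries, with Hbb the most abundant and Hba1 at 0 in all 5. EMPA 2 held genes of cartilage and bone: Col2a1, the main collagen of cartilage, had 6071 counts there, 5 in EMPA 1 and 0, 5 and 2 untreated. Comp, another cartilage matrix gene, had 4.39 and 223 CPM with EMPA and 1.58, 3.57 and 3.48 CPM untreated. Markers of lymphatic vessels and valves, which include Comp, summed to 135 CPM in EMPA 1, 648 CPM in EMPA 2, and 246, 274 and 229 CPM untreated.

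With EMPA, 2 genes rose and 3 fell among the 12388 tested. The sodium channel gene Scn1a and the lipoxygenase gene Alox15 rose, and the major histocompatibility complex (MHC) genes RT1-CE16, RT1-Bb and RT1-A3 fell to 0 counts. These 5 genes are 0.0404% of those tested. At unadjusted p under 0.05 the same test gave 1069 genes (8.63%), 571 higher (4.61%) and 498 lower (4.02%) with EMPA. Counts of list members at that level are to be read beside these shares. In 1523 genes (12.3%) both EMPA libraries lay above all untreated libraries, and in 1407 (11.4%) both lay below. The median log2 fold change of all genes tested was 0.01. For a single value, an exact permutation test of 2 libraries against 3 has 10 arrangements and a smallest one-sided p of 0.1.

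The number of genes past the threshold depended on single libraries and on the tool. It was 4 without any 1 of the untreated libraries, 7 without EMPA 1 and 15 without EMPA 2. Without EMPA 1 the list gained genes high in EMPA 2, among them Mmp9, Bglap and Wif1. Without EMPA 2 it gained red cell genes, among them Alas2, Slc4a1, Ahsp and Rhd. DESeq2 gave 51 genes, with all 5 edgeR genes among them, and limma voom gave 24, with 3 of them. With only the 5 libraries fitted edgeR gave 4, of which RT1-CE16 was shared and LOC100911498, Eif2s3y and Ddx3 were not. LOC100911498 was also past the threshold in DESeq2, and Eif2s3y and Ddx3 in limma voom. With a term for libraries with any count of Eif2s3y, edgeR gave 0 genes past the threshold and 1577 at unadjusted p under 0.05. Such a term rests on HFpEF hearts at week 5, the 1 group with both kinds of library (1 with counts, 2 without), so it does not test the calls.

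Scn1a encodes the pore-forming subunit of Nav1.1, a voltage-gated sodium channel best known in neurons. Its level was 34.5 and 37.7 CPM in EMPA 1 and 2, and 7.70, 6.82 and 9.06 CPM in untreated 1, 2 and 3. Both EMPA libraries lay far above all untreated libraries, and the libraries within each group were close together. Scn1a rose 4.59-fold (log2 fold change 2.20, SE 0.28, adjusted p = 0.00657). Leaving out any 1 of the 5 libraries kept the call, with log2 fold changes from 2.10 to 2.31 and adjusted p from 0.0217 to 0.0356. The call was lost with the 5 libraries fitted alone (2.20, adjusted p = 0.0592) and with the replicate number as a block (2.19, adjusted p = 0.0524).

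Across the other groups, Scn1a was at 20.0 to 25.6 CPM in control hearts at week 5, 6.32 to 12.6 CPM in HFpEF hearts at week 5, 12.7 to 17.6 CPM in control hearts at week 9, 39.9 and 26.5 CPM with PFD alone, and 21.0 to 33.5 CPM with EMPA and PFD together. The untreated range overlapped with that of HFpEF hearts at week 5 and lay below every library of the other groups. Against PFD alone the log2 fold change of Scn1a was 0.12. The difference between the effect of EMPA alone and its effect on top of PFD had a log2 fold change of -2.47 for Scn1a (adjusted p = 0.0529), and Scn1a passed that test in DESeq2 and without replicate 2 of EMPA with PFD.

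**Figure D1:**
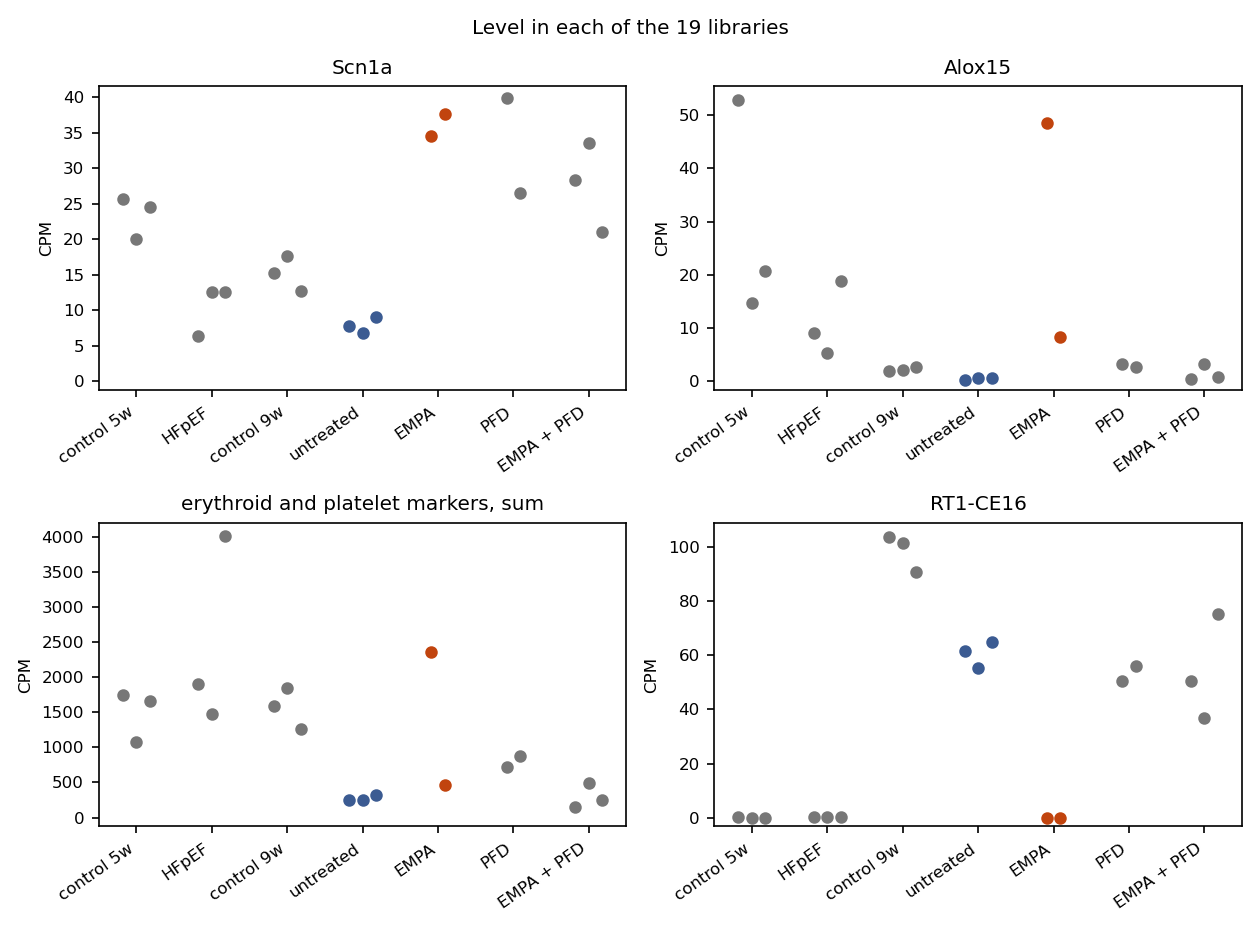
Level of Scn1a, Alox15 and RT1-CE16, and the summed level of erythroid and platelet markers, in CPM in each of the 19 libraries by group, 1 point per library. Scn1a is at 34.5 and 37.7 CPM with EMPA and at 6.82 to 9.06 CPM untreated, and RT1-CE16 is at 0 with EMPA and at 0 to 0.268 CPM in the week 5 groups.

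Among the 14 voltage-gated sodium channel genes 12 were tested. Besides Scn1a, 0 passed the adjusted threshold in edgeR, DESeq2 or limma voom, and 1 other gene was higher at unadjusted p under 0.05 in edgeR. That gene was Scn3b, an accessory subunit, at 19.04 and 49.1 CPM with EMPA and 10.4, 6.58 and 17.5 CPM untreated. Both EMPA libraries were above the untreated ones in Scn3b (log2 fold change 1.57, and 0.73 without EMPA 2). The median of the list was -0.09, from -0.26 without EMPA 1 to 0.08 without untreated 2, and 0.06 without EMPA 2.

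The drug's own target was close to the detection limit. Slc5a2, which encodes SGLT2, had 1.86 and 0.729 CPM with EMPA and 1.06, 2.84 and 1.37 CPM untreated, and Slc5a1, which encodes SGLT1, had 0 counts in all 5 libraries. Of the 20 genes in the list of SGLT targets and sodium handling 19 were tested. At unadjusted p under 0.05 edgeR gave 0 higher and 0 lower, DESeq2 and limma voom each gave 0 past the adjusted threshold, and the median log2 fold change was 0.00, from -0.10 without untreated 2 to 0.06 without EMPA 1.

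Alox15 encodes a lipoxygenase that oxidizes arachidonic and linoleic acid and is found in eosinophils, macrophages and immature red cells. It was at 48.6 CPM in EMPA 1, 8.26 CPM in EMPA 2, and 0.211, 0.568 and 0.527 CPM in untreated 1, 2 and 3. Both EMPA libraries were above the untreated ones, and EMPA 1 was far above EMPA 2. The gene rose with a log2 fold change of 5.96 (SE 0.94, adjusted p = 0.0321). The call was lost without untreated 1, 2 or 3 (log2 fold changes 5.66, 6.22 and 6.07, adjusted p = 0.220, 0.112 and 0.134) and without EMPA 1 (log2 fold change 4.18, adjusted p = 0.169), and was kept without EMPA 2 (6.73, adjusted p = 0.0131). It was also lost with the 5 libraries alone (5.95, adjusted p = 0.413), with the replicate block (5.81, adjusted p = 0.117) and in limma voom (5.33, adjusted p = 0.0711). In the other groups Alox15 was at 14.7 to 52.9 CPM in control hearts at week 5, 5.23 to 18.8 CPM in HFpEF hearts at week 5, 1.92 to 2.69 CPM in control hearts at week 9, 3.18 and 2.57 CPM with PFD alone, and 0.355 to 3.23 CPM with EMPA and PFD together. The difference between its response to EMPA alone and on top of PFD had a log2 fold change of -6.93 (adjusted p = 0.129), and Alox15 passed that test without EMPA 2, without replicate 2 of EMPA with PFD, and in DESeq2.

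Of the 26 lipoxygenase and prostanoid genes 23 were tested, and Alox15 was the 1 that passed. Alox5, the enzyme that starts leukotriene synthesis, was at 9.32 and 6.19 CPM with EMPA and 10.6, 16.2 and 14.5 CPM untreated. Its groups did not overlap (log2 fold change -0.83, SE 0.34, adjusted p = 0.487). The prostaglandin receptor gene Ptger4 was also lower in both EMPA libraries, at 20.2 and 14.0 CPM against 33.6, 23.8 and 30.3 CPM. The median of the list was -0.33, -0.01 without untreated 2 and -0.56 without EMPA 1.

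Red cell genes, like Alox15, were highest in EMPA 1. Slc4a1, the anion exchanger of the red cell membrane, was at 48.3 and 16.0 CPM with EMPA and 2.22, 0.731 and 3.06 CPM untreated. Alas2, which starts heme synthesis in red cell precursors, was at 55.1 and 10.8 CPM against 4.43, 2.68 and 3.90 CPM. Hbb, a beta globin, was at 2033 and 391 CPM against 213, 170 and 279 CPM. For each of these genes both EMPA libraries lay above the untreated range, EMPA 1 by far the most. Of the 14 erythroid and platelet markers 9 were tested, 6 higher and 0 lower at unadjusted p under 0.05, beside 4.61% and 4.02% of all genes. In 5 the EMPA libraries lay above all untreated ones, beside 12.3% of all genes. The median log2 fold change of the 9 markers was 2.46, and 0.83 without EMPA 1. None passed in edgeR (Slc4a1: log2 fold change 4.03, SE 0.71, adjusted p = 0.0655), while Slc4a1, Alas2, Ahsp, Hba-a1 and Hbb passed in DESeq2 and 0 in limma voom. Globin genes are near copies of each other, so their single values are uncertain.

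The untreated and EMPA levels of these markers both lay inside the range of the other groups. Their sum was 1073 to 1752 CPM in control hearts at week 5, 1471 to 4014 CPM in HFpEF hearts at week 5, 1264 to 1850 CPM in control hearts at week 9, 725 and 873 CPM with PFD, and 154 to 490 CPM with EMPA and PFD together. In bulk tissue, fewer cells of a type and less RNA per cell cannot be told apart, and the part of blood left in the tissue in these levels was not tested. In the list of iron and erythropoietin response 17 of 20 genes were tested, with a median of -0.03, from -0.15 without untreated 3 to 0.03 without untreated 1. At unadjusted p under 0.05, 0 were higher and 2 lower, beside 4.61% and 4.02% of all genes. The 2 were Slc40a1, the iron exporter ferroportin, at 8.26 and 6.92 CPM against 15.5, 10.3 and 11.8 CPM, and the ferroxidase gene Heph. Ftl1, the ferritin light chain, was higher in both EMPA libraries, at 451 and 569 CPM against 279, 434 and 322 CPM, and Hamp, which encodes hepcidin, was at 96.5 CPM in untreated 2 and at 3.06 to 5.34 CPM in the other 4 libraries.

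The 3 genes that fell belong to RT1, the rat MHC, which presents peptides to T cells and varies between individual animals and strains. RT1-CE16, of class I, had 0 and 0 counts with EMPA and 583, 684 and 616 counts in untreated 1, 2 and 3. RT1-Bb, a class II beta chain, had 0 and 0 counts against 129, 311 and 104. RT1-A3, of class I, had 0 and 0 counts against 41, 42 and 53. Each gene was detected in every untreated library and in neither EMPA library. RT1-CE16 was at least 159-fold lower (adjusted p = 4.32e-07), RT1-Bb at least 43.5-fold lower (adjusted p = 0.0101) and RT1-A3 at least 11.6-fold lower (adjusted p = 0.0101).

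RT1-CE16 had 3 or fewer counts in 8 of the 19 libraries, namely all libraries of control hearts at week 5, HFpEF hearts at week 5 and EMPA alone, and more than 300 in the other 11. Hearts given EMPA together with PFD had 308 to 720 counts. The calls of RT1-Bb and RT1-A3 were lost without EMPA 1, and that of RT1-A3 also without EMPA 2. The EMPA library left still had 0 counts of each, so the difference was as large as with both. With the 5 libraries alone (adjusted p = 0.367 for both) and with the replicate block (0.0969 and 0.0765) RT1-Bb and RT1-A3 were also not called, nor was RT1-Bb in limma voom (0.0655). Inherited differences of the MHC between animals and an effect of EMPA cannot be told apart here, and RT1 genes share reads with near copies, so the value of each is uncertain.

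Among 49 RT1 symbols 30 were tested and 3 fell. At unadjusted p under 0.05, 1 was higher and 7 were lower, beside 4.61% and 4.02% of all genes. Without overlap 7 lay above and 13 below, beside 12.3% and 11.4% of all genes. The median was -0.22, the same with genes at 0 set to their bound. It was -0.38 without EMPA 1, and -0.12 without EMPA 2 and also without untreated 2. On chromosome 20 of the GRCr8 assembly, the interval between the outermost of the 3 fallen genes held 79 tested genes. Of these 3 were higher and 11 lower at unadjusted p under 0.05, beside 4.61% and 4.02% of all genes. Without RT1 symbols the interval held 61 tested genes, 2 higher and 5 lower. Tap2, which lies there and encodes part of the peptide transporter of antigen presentation, was at 12.4 and 8.26 CPM with EMPA and 19.7, 23.9 and 21.1 CPM untreated. All EMPA values were below all untreated ones (log2 fold change -1.06, SE 0.20, adjusted p = 0.100), and Tap2 passed in DESeq2 and limma voom. Tap1, its partner in the transporter, was at 60.5 and 46.5 CPM against 74.4, 64.7 and 81.7 CPM. In the list of 27 interferon response genes, which includes both, 0 were higher and 2 lower at unadjusted p under 0.05, namely Tap1 and Tap2. Interferon-induced Ifit3, at 49.4 and 36.7 CPM against 25.5, 22.9 and 39.2 CPM, overlapped between groups, and the median of the list was 0.14, and -0.10 without EMPA 1.

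Below the adjusted threshold, immediate early genes formed the list with the most members lower with EMPA. These genes are transcribed within minutes of a stimulus and encode transcription factors such as Jun and Fos and feedback regulators such as Dusp1. Of 26 tested, 0 passed in edgeR, 11 were lower and 0 higher at unadjusted p under 0.05, beside 4.02% and 4.61% of all genes. The 11 became 12, 7 and 9 without untreated 1, 2 and 3, and 7 and 6 without EMPA 1 and 2. In 17 both EMPA libraries lay below all untreated libraries and in 1 both lay above, beside 11.4% and 12.3% of all genes. A negative log2 fold change was found in 23. The median was -0.51, beside 0.01 for all genes tested, and from -0.71 to -0.47 when any 1 of the 5 libraries was left out.

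Nr4a1, a nuclear receptor induced by cAMP and calcium, was at 67.1 and 75.7 CPM with EMPA and 190, 342 and 227 CPM untreated. Untreated 2 was the highest, yet the lowest untreated library was still well above both EMPA libraries. The log2 fold change of Nr4a1 was -1.82 (SE 0.37, adjusted p = 0.100). Btg2, an antiproliferative gene, was at 159 and 204 CPM against 325, 322 and 392 CPM, with a log2 fold change of -0.93 (SE 0.18, adjusted p = 0.100). Jun was at 243 and 232 CPM against 402, 333 and 437 CPM (log2 fold change -0.72, SE 0.17, adjusted p = 0.169). For Btg2 and Jun the libraries of each group lay close together and the groups were apart. Nr4a2, a relative of Nr4a1, was at 26.1 and 19.1 CPM against 50.2, 86.4 and 55.6 CPM. Nr4a1 and Nr4a2 passed in DESeq2, and Nr4a1, Nr4a2 and Btg2 in limma voom. Ier2, Fosb, Dusp1, Jund, Klf4, Egr3 and Klf6 completed the 11. Fos itself was lower in both EMPA libraries, at 24.6 and 27.8 CPM against 46.4, 117 and 82.6 CPM, and Myc was the member with both EMPA libraries higher.

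Levels of these genes also differed across the series. Nr4a1 was at 15.5 to 19.1 CPM in control hearts at week 5, 55.7 to 93.2 CPM in HFpEF hearts at week 5, 43.2 to 93.1 CPM in control hearts at week 9, 92.3 and 122 CPM with PFD, and 100 to 212 CPM with EMPA and PFD. The untreated libraries were the highest group but overlapped with EMPA and PFD given together. Btg2 was at 62.9 to 70.4 CPM in control hearts at week 5 and 176 to 195 CPM in control hearts at week 9, a range that overlaps with EMPA.

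The promoters of the immediate early genes were searched for TGACG, the core of the cAMP response element, on both strands (CGTCA on the other). RefSeq promoters of 300 bases (GRCr8) were found for 17 of the 26 genes, and 11 of the 17 (64.7%) held a match, beside 7097 of all 33469 promoters (21.2%). Of the 11 lower genes 9 had a promoter and 6 of those a match, with 0 matches for Fosb, Klf4 and Klf6, and 5 of the 8 other members had a match. The promoters of Nr4a1 and Btg2, the genes with the lowest adjusted p in the list, are shown 5′ to 3′ with matches in capitals. Nr4a1 lies on the plus strand (chr7:134259888-134260187) with 4 matches, and Btg2 on the minus strand (chr13:48087641-48087940) with 2 that overlap, 1 on each strand. The members had 1 promoter each, and the 33469 include genes that were not tested here. A match describes the letters only, and a link of the matches to EMPA was not tested.
Nr4a1: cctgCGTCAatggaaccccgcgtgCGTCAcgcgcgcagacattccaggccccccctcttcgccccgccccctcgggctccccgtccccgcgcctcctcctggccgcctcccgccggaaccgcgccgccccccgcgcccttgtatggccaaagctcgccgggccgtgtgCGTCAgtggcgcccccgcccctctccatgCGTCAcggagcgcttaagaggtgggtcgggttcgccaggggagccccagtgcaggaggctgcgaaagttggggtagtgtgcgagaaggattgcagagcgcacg
Btg2: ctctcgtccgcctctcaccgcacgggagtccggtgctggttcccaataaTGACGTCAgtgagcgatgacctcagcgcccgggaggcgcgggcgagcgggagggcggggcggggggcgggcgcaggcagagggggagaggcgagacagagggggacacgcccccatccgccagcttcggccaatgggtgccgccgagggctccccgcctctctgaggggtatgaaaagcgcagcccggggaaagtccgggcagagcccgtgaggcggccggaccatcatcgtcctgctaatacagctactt

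**Figure D2:**
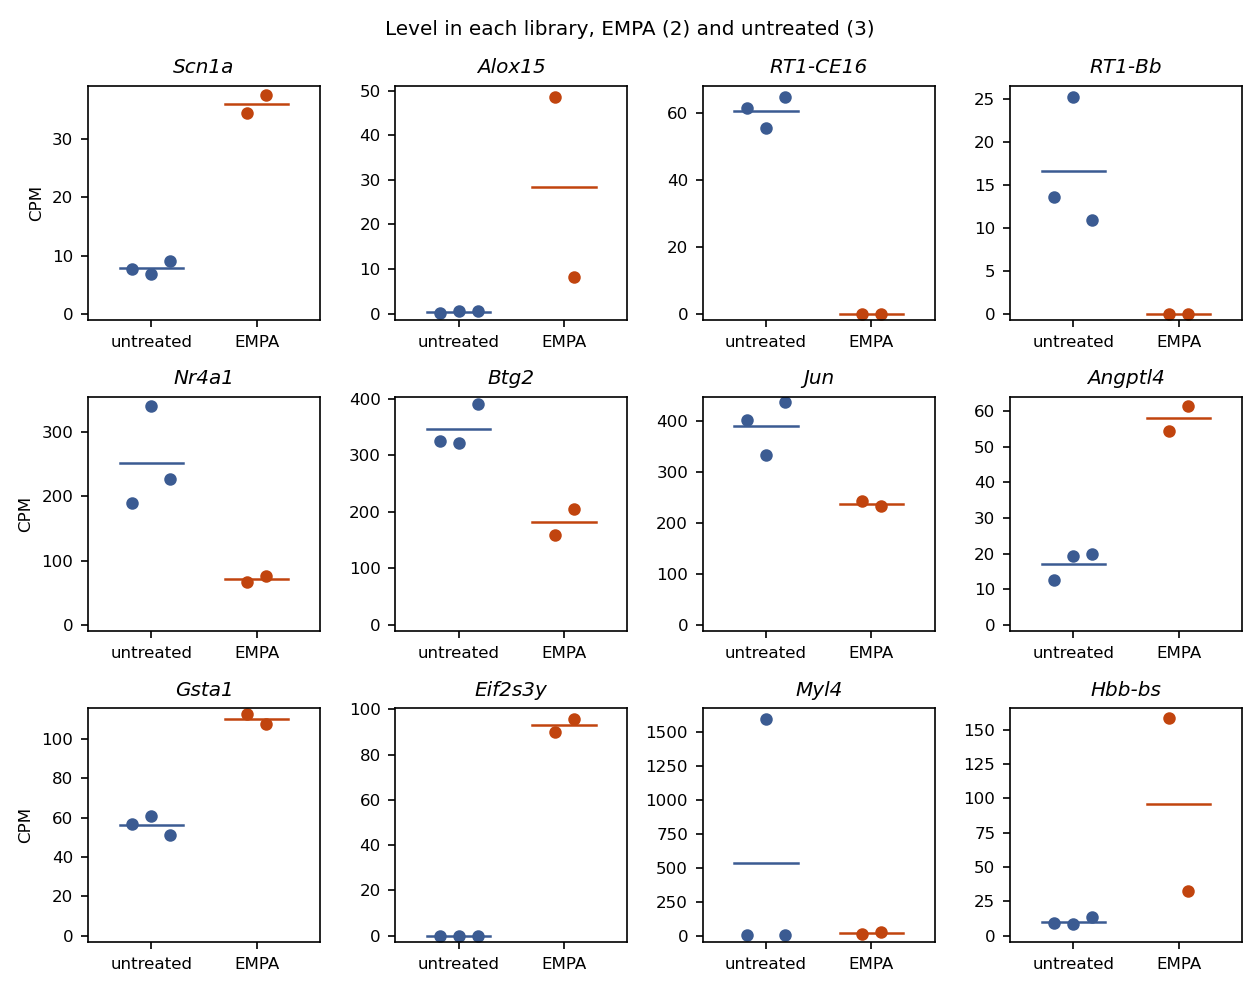
Level in CPM of 12 genes in each of the 5 libraries, 1 point per library and a line at the group mean. Nr4a1, Btg2 and Jun lie lower in both EMPA libraries than in all untreated libraries, and Myl4 is high in untreated 2 alone.

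Fuel genes gave few differences of their own. Angptl4, a lipase inhibitor induced by PPAR-alpha in fasting, was at 54.5 and 61.6 CPM with EMPA and 12.4, 19.2 and 19.8 CPM untreated. Both EMPA libraries were well above the untreated ones. Its log2 fold change was 1.76 (SE 0.38, adjusted p = 0.123), and it passed in DESeq2 and limma voom. With PFD alone Angptl4 was at 66.2 and 29.1 CPM, and in HFpEF hearts at week 5 at 23.7 to 71.3 CPM. Of 23 PPAR-alpha targets, all tested, 1 was higher and 0 lower at unadjusted p under 0.05. The groups did not overlap in 6, all with EMPA above, beside 12.3% of all genes above and 11.4% below. The median of the list was 0.32, -0.05 without untreated 2 and 0.51 without untreated 1. Cpt1a, which admits fatty acids to mitochondria, was at 117 and 121 CPM against 103, 79.2 and 90.1 CPM. Pdk4, which restrains pyruvate oxidation, overlapped at 507 and 302 CPM against 413, 124 and 346 CPM.

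Ketone genes depended on untreated 2. Of 11 tested, 1 was higher and 0 lower at unadjusted p under 0.05, beside 4.61% and 4.02% of all genes. The median was 0.06. Without untreated 2, 0 were higher and 2 lower in edgeR, with a median of -0.24. The higher gene was the transporter gene Slc16a6, at 26.6 and 28.4 CPM against 19.7, 18.8 and 19.4 CPM (log2 fold change 0.51, SE 0.24, adjusted p = 0.561). Bdh1, which oxidizes beta-hydroxybutyrate, was at 13.6 and 20.6 CPM with EMPA and at 45.2, 4.47 and 50.5 CPM untreated, and Oxct1, which activates acetoacetate, at 569 and 753 CPM against 1258, 262 and 1317 CPM. In both genes untreated 2 lay below the EMPA libraries and untreated 1 and 3 above them.

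The same split of the untreated group ran through the mitochondrial lists. Cs, citrate synthase, was at 260 and 247 CPM with EMPA and at 598, 120 and 380 CPM untreated. The median was -0.17 for the 21 tricarboxylic acid cycle genes, -0.53 without untreated 2 and 0.15 without untreated 1. In the same order it was -0.07, -0.44 and 0.25 for 28 tested oxidative phosphorylation genes, 0.01, -0.39 and 0.37 for 24 fatty acid oxidation genes, and -0.20, -0.57 and 0.10 for 16 tested genes of branched-chain amino acid catabolism. At unadjusted p under 0.05 edgeR gave 0 in the first 3 lists and 1 lower, Acadsb, in the last, and DESeq2 and limma voom gave 0 past the adjusted threshold in all 4. Without untreated 2, 7 genes of the tricarboxylic acid cycle, 3 of oxidative phosphorylation, 2 of fatty acid oxidation and 7 of branched-chain amino acid catabolism were lower at unadjusted p under 0.05, beside 656 of all 12342 genes tested without it. Ventricular marker sums of untreated 2 were also low, as given above, and their part in these medians was not tested.

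In glucose use, 24 genes were tested, 1 higher and 1 lower at unadjusted p under 0.05, beside 4.61% and 4.02% of all genes. The median was -0.13, -0.45 without untreated 2 and 0.17 without untreated 1. Pfkfb1, which sets the level of an activator of glycolysis, was at 14.0 and 9.47 CPM with EMPA and 2.00, 1.62 and 3.06 CPM untreated. The groups did not overlap (log2 fold change 2.40, SE 0.47, adjusted p = 0.100), and Pfkfb1 passed in DESeq2 and limma voom. Control hearts at week 9 held 19.04 to 22.3 CPM of Pfkfb1, above EMPA. Hk2, a hexokinase, was at 8.66 and 13.2 CPM against 30.9, 15.9 and 25.9 CPM. Of 31 genes of AMPK, autophagy and lysosome, 0 were higher or lower at unadjusted p under 0.05 in edgeR and 0 passed in DESeq2 or limma voom, with a median of -0.06, -0.16 without untreated 2 and 0.01 without untreated 1. Without overlap 3 lay above and 3 below, beside 12.3% and 11.4% of all genes. Prkag1, a subunit of AMPK, was higher at 164 and 155 CPM against 130, 138 and 134 CPM (log2 fold change 0.25, SE 0.14). Lamp1 was lower at 416 and 446 CPM against 528, 449 and 499 CPM (log2 fold change -0.19, SE 0.15).

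Contractile genes include the 2 myosin heavy chains of the heart. Myh6, the fast alpha chain of the adult rat ventricle, was at 4559 and 1707 CPM with EMPA and 19379, 7239 and 12557 CPM untreated. Both EMPA libraries were lower than every untreated library, with wide spread in each group (log2 fold change -2.06, SE 0.89, adjusted p = 0.529). Myh7, the slow beta chain that rises in hypertrophy, was at 10422 and 10734 CPM against 5339, 866 and 10446 CPM, with overlap (log2 fold change 0.93, SE 0.78, adjusted p = 0.818). Of 21 tested sarcomere genes 0 were higher and 1 lower at unadjusted p under 0.05, with a median of 0.19, -0.18 without untreated 2 and 0.46 without untreated 1. Among 23 calcium handling genes 1 was higher and 0 lower, with a median of -0.03, from -0.10 without EMPA 2 to 0.07 without untreated 1. Without untreated 2, EMPA 1 or EMPA 2 it was 0 higher and 1 lower in edgeR. The higher gene was Cacna1c, the L-type calcium channel, at 227 and 246 CPM against 175, 99.0 and 159 CPM.

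The list of fetal program and hypertrophy had the highest median of the process lists, 0.83 over 17 tested genes. Of these 4 were higher and 0 lower at unadjusted p under 0.05, beside 4.61% and 4.02% of all genes. That median was 0.08 with 0 higher in edgeR without EMPA 2. Tnc, a matrix protein of injury, was at 10.9 CPM in EMPA 1, 126 CPM in EMPA 2 and 1.06, 14.3 and 4.43 CPM untreated. Xirp2 was at 778 and 3334 CPM against 450, 164 and 986 CPM, and Nppb, which encodes the natriuretic peptide BNP, at 185 and 492 CPM against 140, 205 and 248 CPM. EMPA 2 was the highest of the 5 libraries in each. Myocd, a coactivator of muscle genes, was higher in both EMPA libraries, at 83.0 and 87.7 CPM against 61.4, 26.8 and 56.2 CPM. Nppa overlapped at 678 and 5124 CPM against 18.9, 9671 and 434 CPM.

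Matrix and fibrosis genes rested on EMPA 2 and untreated 2. Col1a1, the main fibrillar collagen chain, was at 316 and 2989 CPM with EMPA and 329, 893 and 331 CPM untreated, and Col3a1 at 1170 and 2653 CPM against 1211, 3314 and 1371 CPM. In Col1a1, EMPA 1 was close to untreated 1 and 3. Of 32 tested matrix genes 1 was higher and 1 lower at unadjusted p under 0.05, with a median of -0.04, -0.73 without EMPA 2 and 0.40 without EMPA 1. Sfrp2, a secreted Wnt modulator, was at 5.46 and 23.8 CPM against 40.7, 303 and 21.6 CPM. TGF-beta signaling is the pathway that drives collagen synthesis. Of its 21 tested genes 7 lay below and 0 above without overlap, beside 11.4% and 12.3% of all genes. At unadjusted p under 0.05, 0 genes of the pathway were higher and 2 lower, beside 4.61% and 4.02% of all. The 2 were its inhibitors Smad6, at 22.9 and 19.4 CPM against 27.7, 80.9 and 29.6 CPM, and Smad7, at 57.4 and 64.1 CPM against 70.2, 111 and 76.3 CPM. The receptor gene Tgfbr2 was at 100 and 101 CPM against 129, 125 and 118 CPM, and the ligand gene Tgfb1 overlapped. The median was -0.17, and without untreated 2 it was -0.14 with 0 lower in edgeR. Without EMPA 2 the median was -0.48, also with 0 lower in edgeR.

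The 3 lists of inflammatory genes had medians below 0. Of 29 tested cytokines and chemokines 23 had a negative log2 fold change, beside 6065 of all 12388 genes. The median was -0.29, from -0.54 without EMPA 1 to -0.19 without untreated 2. At unadjusted p under 0.05, 2 were higher and 1 lower, beside 4.61% and 4.02% of all genes. Ccl21, which guides lymphocytes and dendritic cells, was at 15.0 and 20.0 CPM against 124, 39.6 and 52.9 CPM, and the low-level Ccl20 and Ccl22 were higher. Il1b overlapped at 7.59 and 2.79 CPM against 3.48, 11.1 and 4.21 CPM. Of 28 tested NF-kB genes 1 was higher and 1 lower at unadjusted p under 0.05, with a median of -0.20, and -0.13 without untreated 2. In 1 the EMPA libraries lay above all untreated ones and in 7 below, beside 12.3% and 11.4% of all genes. Tnfaip2, induced by TNF, was at 18.1 and 19.6 CPM with EMPA and 29.4, 65.1 and 38.4 CPM untreated (log2 fold change -1.24, SE 0.28, adjusted p = 0.135), and it passed in DESeq2. Nfkbia, the inhibitor that holds NF-kB in the cytoplasm, was at 610 and 471 CPM against 290, 355 and 323 CPM, with both EMPA libraries above. Of 21 inflammasome and innate sensing genes 0 were higher and 1, Nlrp1a, lower, with a median of -0.10, 0.11 without untreated 2 and 0.02 without EMPA 2. Nlrp3 overlapped at 5.46 and 3.64 CPM against 3.17, 7.14 and 3.48 CPM.

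Antioxidant genes were led by Gsta1, a glutathione transferase, at 113 and 108 CPM with EMPA and 56.9, 60.8 and 51.0 CPM untreated. The EMPA values were close to each other and clear of the untreated range (log2 fold change 0.97, SE 0.21, adjusted p = 0.123), and Gsta1 passed in limma voom. Hmox1, which degrades heme, was at 33.4 and 31.9 CPM against 11.7, 18.4 and 14.6 CPM (log2 fold change 1.13, SE 0.59). Of 31 antioxidant and NRF2 target genes 1 was higher and 0 lower at unadjusted p under 0.05, with a median of 0.04, and -0.02 without untreated 2. In 7 the EMPA libraries lay above all untreated ones and in 1 below, beside 12.3% and 11.4% of all genes. Among 20 heat shock genes 1, Dnajb1, was lower and 0 higher, with a median of 0.10, -0.10 without untreated 2 and -0.03 without EMPA 2. Among 26 genes of the integrated stress and unfolded protein response 0 were higher or lower at unadjusted p under 0.05 in edgeR and 0 passed in DESeq2 or limma voom, with a median of -0.04.

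Vascular genes gave 0 past the threshold in edgeR, DESeq2 or limma voom. Of 27 genes of angiogenesis and VEGF signaling 22 had a negative log2 fold change, beside 6065 of all 12388, and the median was -0.31, from -0.43 to -0.32 with 1 of the 5 libraries left out. At unadjusted p under 0.05 edgeR gave 0 of them. Without overlap 1 lay above and 9 below, beside 12.3% and 11.4% of all genes. Vegfc, a growth factor of lymphatic vessels, was at 25.0 and 13.4 CPM against 30.9, 31.5 and 30.2 CPM, and Pdgfb at 60.6 and 69.4 CPM against 90.3, 98.1 and 109 CPM. Vegfa overlapped at 2602 and 1890 CPM against 1694, 1285 and 2171 CPM. Endothelial markers, 14 tested with 0 higher and 2 lower, had a median of -0.30 (-0.49 without EMPA 1, -0.13 without EMPA 2) and a summed level of 7219 and 5366 CPM against 6378, 7149 and 7170 CPM. Their part in the vascular list was not tested.

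In the renin-angiotensin and endothelin list 14 of 20 genes were tested. At unadjusted p under 0.05, 2 were higher and 3 lower, beside 4.61% and 4.02% of all genes. The median was -0.13, 0.00 without untreated 2 and -0.36 without EMPA 2. Ednra, the endothelin receptor that constricts vessels, was at 123 and 187 CPM with EMPA and 92.8, 98.2 and 86.7 CPM untreated. Mas1, the receptor for angiotensin 1-7, was at 6.13 and 8.62 CPM against 2.85, 4.38 and 3.37 CPM. The endothelin receptor gene Ednrb was lower, at 53.5 and 42.9 CPM against 54.9, 74.3 and 90.9 CPM. In none of these 3 genes did the groups overlap, and the lowest adjusted p among them was 0.246, for Ednra. Of 22 tested nitric oxide and cGMP genes 1 was higher and 1 lower, with a median of -0.06, and -0.12 without EMPA 1. Ddah2, which breaks down an inhibitor of nitric oxide synthase and lies in the MHC interval, was at 115 and 122 CPM against 54.5, 84.2 and 67.3 CPM.

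Clock, cell cycle and kinase lists held few genes at unadjusted p under 0.05. Of 15 tested clock genes 0 were higher or lower at unadjusted p under 0.05 in edgeR and 0 passed in DESeq2 or limma voom. Clock genes without overlap were 4 above and 4 below, beside 12.3% and 11.4% of all genes. The median of the list was 0.10. That median was -0.03 without untreated 2 and -0.11 without EMPA 1. Per2, a repressor of the clock, was at 69.8 and 69.1 CPM with EMPA and 20.2, 45.8 and 29.4 CPM untreated, while Nr1d1 was at 63.8 and 62.4 CPM against 121, 79.4 and 103 CPM. Of 28 cell cycle genes 1, Ccne2, was higher and 1, Pcna, lower, with a median of 0.00, and 0.22 without untreated 2. The study named the 22 protein kinase C and receptor signaling genes of the last list from its own comparisons. Some of those comparisons share the untreated libraries, and none holds EMPA alone. The list is thus not fully independent evidence of a direction. It had 0 at unadjusted p under 0.05 in edgeR, 0 past the threshold in DESeq2 and limma voom, and a median of -0.08.

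**Figure D3:**
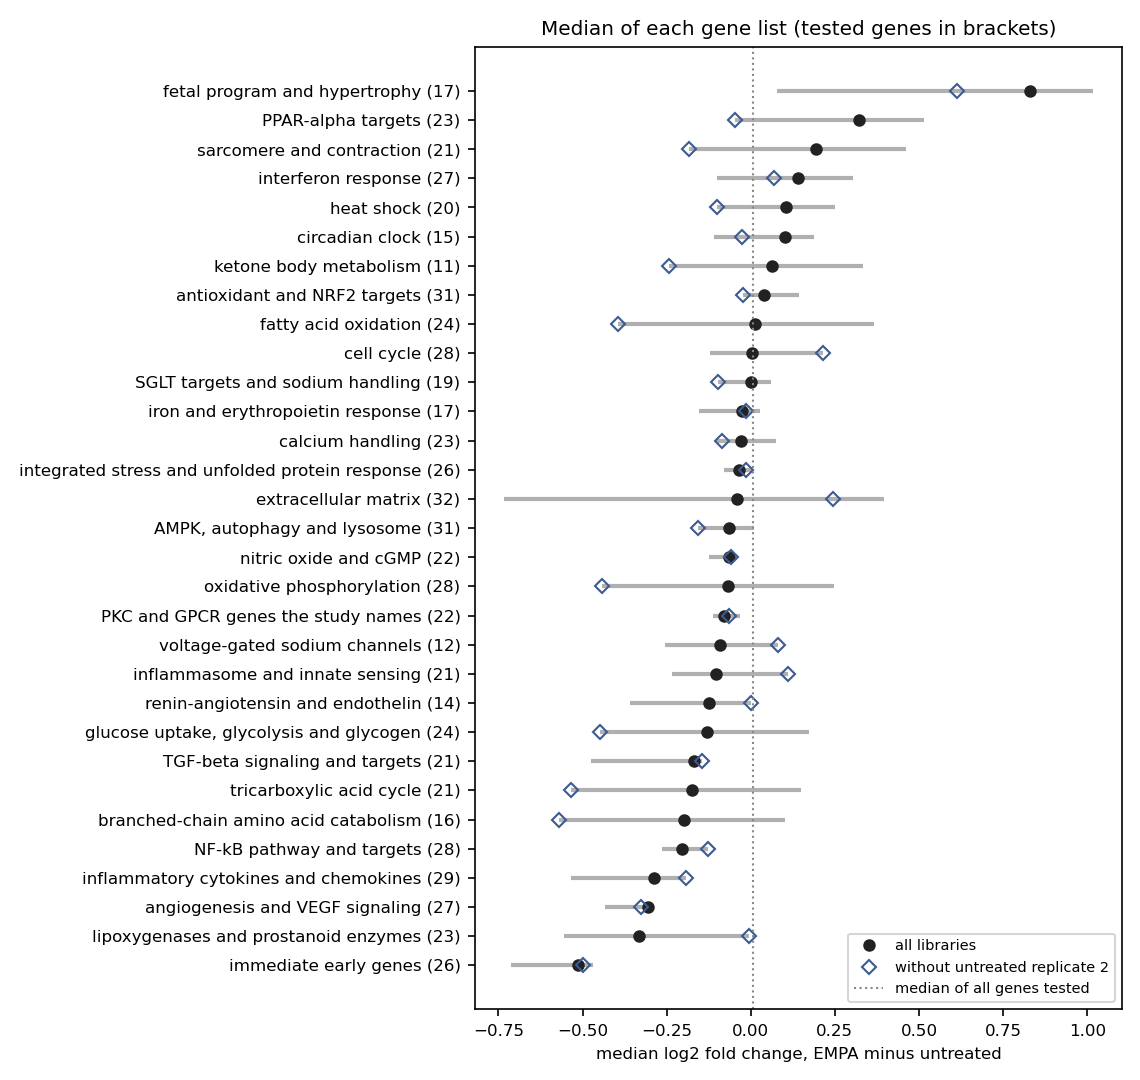
Median log2 fold change of EMPA over untreated for each of 31 gene lists, with all libraries (filled), without untreated replicate 2 (open), and the range over leaving out 1 library at a time (bar). The immediate early genes are lowest at -0.51, and the dotted line marks all genes tested at 0.01.

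Of the 31 process lists 2 held a gene past the threshold, and 20 had a median below 0 and 11 above. Without untreated 2 the median of 12 lists changed sign, and 9 lists kept 1 sign whichever of the 5 libraries was left out. DESeq2 placed a gene past the threshold in 7 lists and limma voom in 6.

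Markers of other cells gave a median log2 fold change of 0.07 for ventricular cardiomyocytes (10 tested), -0.63 for atrial cardiomyocytes (13), -0.41 for conduction tissue (9), -0.43 for fibroblasts (15) and 0.28 for smooth muscle cells and pericytes (14). Without untreated 2 the first 4 became -0.41, 0.17, 0.32 and 0.07, and without EMPA 2 the smooth muscle median was -0.21. It was -0.31 for macrophages and myeloid cells (16 tested), 0.14 for granulocytes and mast cells (8), -0.18 for T, B and NK lymphocytes (16) and 0.17 for adipocytes (6). Without EMPA 1 the granulocyte median was -0.50, and the lymphocyte median was -0.90 without EMPA 1 and 0.20 without EMPA 2. The macrophage median ran from -0.64 without EMPA 1 to -0.08 without untreated 2, and that of adipocytes from -0.01 without untreated 3 to 0.40 without untreated 2. Mesothelial and epicardial markers (7) had a median of 0.68, Schwann cell and nerve markers (10) 0.27, skeletal muscle markers (7) -0.18, 0.18 without untreated 2, and lymphatic and valve markers (10) 0.68. Without EMPA 2 the medians were -0.41 for mesothelial, -0.43 for Schwann cell, and -0.86 for lymphatic and valve markers. The lymphatic and valve list had members in both directions, 3 higher and 2 lower at unadjusted p under 0.05, beside 4.61% and 4.02% of all genes. Among them were Comp (log2 fold change 5.29) and Ccl21 (-2.04). Among these 13 kinds of marker the adjusted threshold was passed by 0 genes in edgeR. The largest count there at unadjusted p under 0.05 was 5 of 13 atrial markers lower, beside 4.02% of all genes. Without untreated 2, 0 atrial markers were lower at that level. Myl7, Comp and Pdpn passed in DESeq2, and 0 in limma voom.

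PFD alone is another treated group with the same model, week and number of libraries as EMPA. Its libraries, like the untreated ones and unlike EMPA, had 0 counts of Eif2s3y. EMPA against PFD gave 4 genes (0.0323%), all lower with EMPA: RT1-CE16, RT1-Bb and RT1-A3 again, and Cryl1, which encodes a dehydrogenase of sugar metabolism. Cryl1 was at 16.5 and 11.7 CPM with EMPA, with a log2 fold change of -2.45 against PFD (adjusted p = 0.0188) and of -0.54 against untreated (adjusted p = 0.688). Against PFD the count was 10 without EMPA 1 and 1 without EMPA 2 or without either PFD library. The test of whether the effect of EMPA differed in the presence of PFD gave 1 gene (0.00807%), RT1-CE16. That count was 10 without EMPA 2, and 4 and 7 without replicates 1 and 2 of EMPA with PFD.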

How the data were processed

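The count files are those deposited by the authors, with 1 integer count per gene symbol in column 2, used as they stand. The submitters' processing notes name Trim Galore, FastQC, HISAT2, HTSeq and the rn6 assembly; the strand setting, the overlap mode and the annotation version are not given in the sources used here. All 19 libraries were fitted together in a model of 7 groups with edgeR 4.0.16 (R 4.3.3), with TMM normalization, filterByExpr on the groups and the quasi-likelihood F test of EMPA minus untreated. P-values were adjusted by Benjamini-Hochberg over the 12388 genes tested, and they measure the spread between libraries. The SE is the size of the log2 fold change divided by the square root of F. DESeq2 1.42.0 and limma 3.58.1 (voom with sample quality weights) were run on the same genes and libraries. The edgeR fit was tested on simulated data. No simulated library stood apart from its group, so the limits set by such libraries here were not tested.

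Genes were chosen by rule, and not all of them are described above. The rule took every gene past the threshold and the 4 members of each list with the lowest p. It took the 12 largest rises and 12 largest falls at unadjusted p under 0.05 without overlap and with a group mean of at least 1 CPM. A set of genes tied to the drug or to libraries that stand apart was added. Of the largest rises Tnn, Ecrg4, Grem1 and Spp1 are not described. Of the largest falls Lmx1a, Sbk2, Dntt, Syce1, Gpr27, Lrrn1, Cldn1 and Fgf10 are not described. Other genes are named where a count needed them, after their values were seen. Members and lists were chosen with earlier results of these data known. Lists, 31 of processes and 15 of cell type markers beside sex-linked and RT1 genes, are described by counts and medians, with no test of a list. Of the symbols in the files, 15501 match the reference gene table and 1606 match it as older names, and LOC100911498 is not in it.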

Additional observations from a re-analysis of the deposited data

Results flagged for a closer look

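RT1-CE16 was the 1 gene whose response to EMPA differed between hearts with and without PFD (adjusted p = 3.14e-06, edgeR's quasi-likelihood test of the interaction over 12388 genes). It had 0 and 0 counts with EMPA alone and 583, 684 and 616 counts untreated, and 426, 308 and 720 counts with EMPA and PFD against 463 and 545 with PFD alone. RT1-CE16 was thus detected in every library of these groups except the EMPA libraries. An inherited difference between animals and an effect of the drug cannot be told apart, and reads shared with near copies were not tested.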

How the results depend on the processing

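The count of 5 genes past the threshold was the same with RLE and with upper quartile normalization and with no filter on low counts. With at least 10 counts required in every library it was 1 among 10549 genes tested, since that filter left out RT1-CE16, RT1-Bb, RT1-A3 and Alox15. It was 0 with a term for libraries with any count of Eif2s3y, which rests on the 3 HFpEF libraries of week 5, 51 with DESeq2 and 24 with limma voom, and from 4 to 15 when 1 library was left out. The count at unadjusted p under 0.05 was 710 with the 5 libraries alone and 1932 with limma voom, and from 638 to 1383 when 1 library was left out. EMPA against PFD gave 24 genes with DESeq2 and 1 to 10 when 1 library was left out. The interaction gave 2 genes with RLE, 38 with DESeq2 and 1 to 10 when 1 library was left out. The cause was not tested. No fold change of the 5 genes reversed in the settings that tested it, 14 for Scn1a and 13 for each of the others. Where leaving out a library leaves 1 in a group, that library is assumed to vary like those of the other groups.

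With the replicate number as a block, EMPA against untreated gave 1 gene, EMPA against PFD 1 and the interaction 1. Differences from the group mean correlated across genes at a mean of -0.0510 in 52 pairs of libraries with the same number and 0.0228 in 102 pairs with other numbers. Between EMPA and untreated the 2 pairs with the same number were at 0.301 and 0.244 and the 4 others from -0.301 to 0.0733, values that mirror each other since 2 EMPA libraries deviate equally from their mean. Whether numbers mark a shared source was not tested, and the labels do not say that numbers pair animals.

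Medians of gene lists were computed in 14 other settings each (the term for Eif2s3y among them), 434 values for the 31 process lists. Of these 70 had the other sign and 32 moved by more than the spread between libraries. Low-count genes such as Slc5a2 and Ccl20 are limited by depth, and 2 EMPA libraries, 1 high in red cell genes and 1 in cartilage genes, limit every result above.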

Other observations

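Some genes outside the gene lists separated the groups with little spread, and they were chosen after their values were seen. Itga1, a collagen and laminin receptor subunit, was at 34.0 and 24.8 CPM in EMPA 1 and 2 and 56.8, 54.1 and 55.4 CPM in untreated 1, 2 and 3 (log2 fold change -0.92, SE 0.16, adjusted p = 0.0655). Both EMPA libraries were below an untreated group that hardly varied. Dennd2b was at 310 and 311 CPM against 152, 141 and 185 CPM (log2 fold change 0.96, SE 0.18, adjusted p = 0.0871). Plekha5 was at 250 and 197 CPM against 120, 112 and 109 CPM (log2 fold change 0.98, SE 0.20, adjusted p = 0.100). In both, the EMPA libraries lay above all untreated libraries.

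Cacna1a, the P/Q-type calcium channel, was at 50.6 and 109 CPM with EMPA and 27.5, 28.6 and 28.0 CPM untreated (log2 fold change 1.51, SE 0.29, adjusted p = 0.100). EMPA 2 was the higher of the EMPA libraries, and Cacna1a passed the threshold without EMPA 1, in DESeq2 and in limma voom. Chrdl1, an inhibitor of bone morphogenetic proteins, was at 7.06 and 6.92 CPM against 16.1, 23.5 and 23.5 CPM (log2 fold change -1.59, SE 0.34, adjusted p = 0.123), with no overlap.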
